A study of Mus spretus with 8 samples.

Results

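The enzymes of hepatic steroid interconversion described here are 10 genes chosen by name, namely Hsd3b2, Hsd3b3, Hsd3b5, Hsd11b1, Hsd17b2, Hsd17b6, Hsd17b11, Hsd17b13, Srd5a1 and Srd5a2, and every probe carrying one of these symbols in the probe annotation was used. Of the 10 genes, 8 had a probe, with 19 probes in all among 42957 on the array and 8 genes among 22471 with a symbol. The steroid 5-alpha-reductases Srd5a1 and Srd5a2 carried no probe under their symbols and were not analysed here. The tissue was liver of male Mus spretus, a wild mouse species kept as the inbred strain SPRET/EiJ, with 1 mouse and 1 single-colour array per sample. The DDE group was 4 mice aged 7 weeks whose Harlan feed held 450 mg/kg of p,p'-DDE dissolved in corn oil for 30 days. The control group was 4 mice that ate Harlan feed with corn oil and no p,p'-DDE, also for 30 days. p,p'-DDE is the long-lived breakdown product of the insecticide DDT and is known as an anti-androgen.

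Hydroxysteroid dehydrogenases switch steroids between a hydroxyl and a ketone form at single carbon atoms, which turns the hormone on or off for its receptor. Enzymes of the Hsd3b family act at carbon 3, those of the Hsd11b family at carbon 11 of glucocorticoids and those of the Hsd17b family at carbon 17 of androgens and oestrogens, although several Hsd17b proteins mainly handle retinoids or lipids. In mouse liver these enzymes sit beside the cytochrome P450, sulphate and glucuronide pathways that clear steroids, and Hsd3b5 is known as a gene of male liver.

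All values below are log2 signals as the authors normalized them, on a scale that ends at 16 on every array. The background level of an array was read from 1634 probes of odour and pheromone receptors, which liver should lack, as their 0.95 quantile, and it lay between 7.55 and 7.81. Stained patches, where neighbouring spots deviated together, covered from 0.521% to 9.50% of the spots of an array and touched 9 of the 152 values of the member probes. All 10 hepatocyte markers were above background on all 8 arrays, and 1 of them, the apolipoprotein gene Apoa1, was lower in the DDE group by the limma test (change -0.60). Markers of exocrine pancreas were also well above background, with means over 4 genes from 11.65 to 14.50 in DDE livers and from 10.99 to 15.47 in controls, and 0 of them passed the test between the groups. The 7 stellate cell markers had means from 9.23 to 9.81 in DDE livers and from 8.99 to 9.30 in controls. Of these 1 was higher in the test, Reln (change 0.38), which was above background on fewer than 4 of the 8 arrays. The 5 cholangiocyte markers had means from 7.37 to 7.53 in DDE livers and from 7.48 to 8.93 in controls. The part of these other cells in the results was not tested.

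The comparison asked which of these enzymes differed in expression after dietary p,p'-DDE. One gene, Hsd3b5, fell, with group means 22.7-fold apart once values under background were raised to it. Its 2 close relatives Hsd3b2 and Hsd3b3 had lower means. Their changes were -0.72 each on the log2 scale and did not pass at their brightest probes. The 11-beta-hydroxysteroid dehydrogenase gene Hsd11b1 and the 4 Hsd17b genes had changes between -0.49 and 0.40 at their brightest probes, and none of their probes passed the threshold. Of the 8 measured genes, each taken at its brightest probe, 1 was lower and 0 were higher by limma with an adjusted p under 0.05, where 0.774% of all 22471 genes were lower, 2.58% were higher and 3.35% passed in either direction. The median change over the 8 genes was -0.33, against 0.01 over all genes, and 6 of the 8 were below 0. The groups did not overlap for 2 of the 8, Hsd3b3 and Hsd3b5, where 12.5% of all genes had groups that did not overlap. Before adjustment, 3 of the 8 had a p under 0.05, all lower, and these were the 3 Hsd3b genes, where 3593 of all 22471 genes had such a p and 1026 of these, 4.57% of all genes, were lower.

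**Figure D1:**
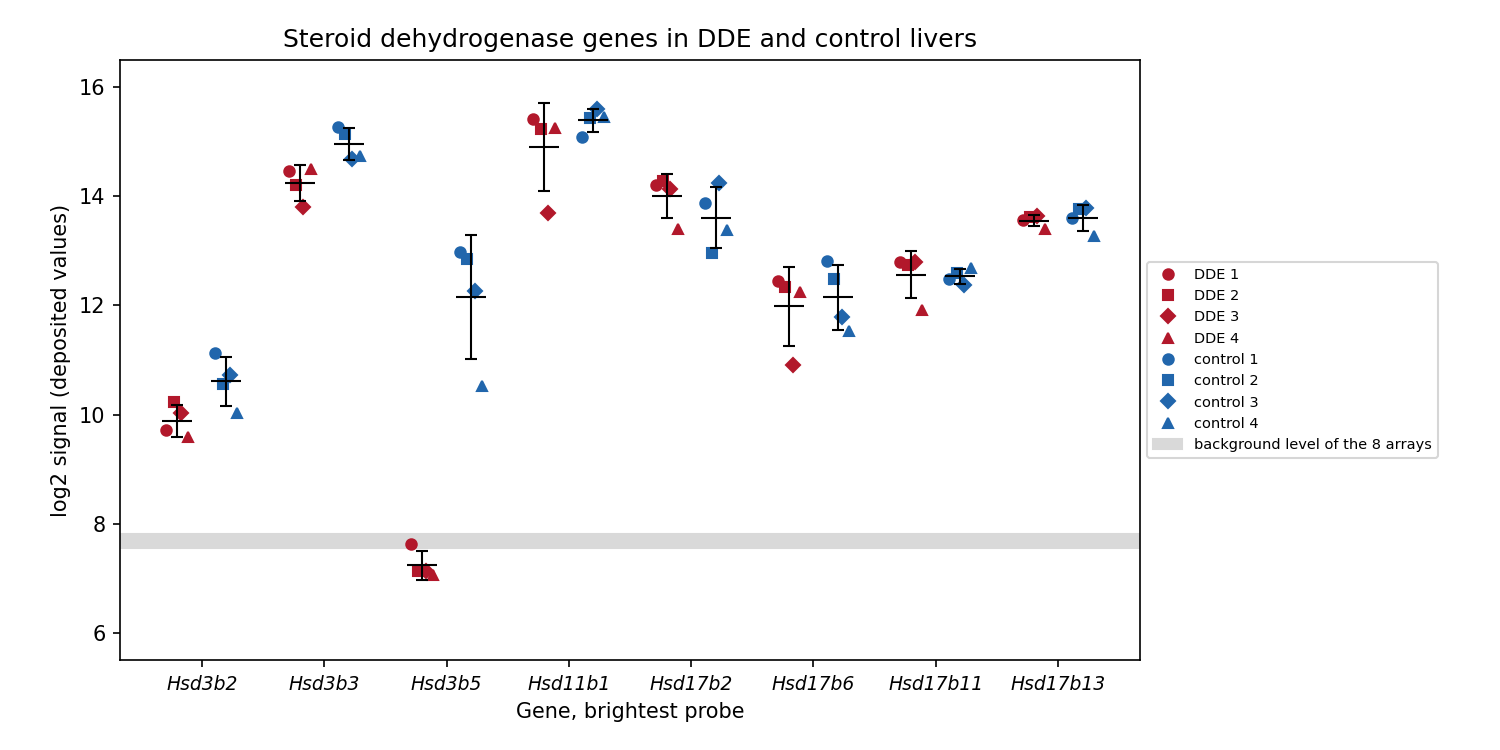
Log2 signal of the 8 measured genes (horizontal axis) at the brightest probe of each, with 1 point per liver, DDE in red and control in blue, black bars for mean ± SD (n = 4 each) and a grey band for the background levels of the 8 arrays. The Hsd3b5 points of the DDE livers lie at or under the band, while those of the controls lie between 10.52 and 12.98.

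Hsd3b5 encodes an enzyme of the family that in mice works mainly as a 3-ketosteroid reductase, using NADPH, and can inactivate dihydrotestosterone. Its 1 probe gave 7.63, 7.13, 7.13 and 7.06 in the 4 DDE livers, against 12.98, 12.86, 12.26 and 10.52 in the 4 controls. The lowest control lay 2.89 above the highest DDE liver, and of the DDE livers only DDE 1 was above the background of its own array. The measured change was -4.92 ± 0.53 (SE), with a 95% confidence interval from -6.17 to -3.67 (limma adjusted p = 0.00921). With values under background raised to it, the change in means was -4.50, which is 22.7-fold lower. This is a bound for signal hidden under background only and takes no account of the spread between livers. In whole liver RNA, fewer cells with the transcript and less transcript per cell cannot be told apart. None of its 8 spots lay in a stained patch. Leaving out control 4, the control with the least Hsd3b5, gave a change of -5.46, and the call held whichever of the 8 arrays was left out (adjusted p from 0.000898 to 0.041). With the replicate number as a block in the fit, the call was lost (adjusted p = 0.0631).

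Hsd3b3 encodes a 3-beta-hydroxysteroid dehydrogenase and isomerase of mouse liver and kidney, of the kind that converts delta-5 to delta-4 steroids. It gave 14.46, 14.20, 13.80 and 14.51 in DDE livers, against 15.28, 15.15, 14.69 and 14.74 in controls. All 4 DDE livers were below all 4 controls, with a gap of 0.18 between the nearest values. The change was -0.72 ± 0.21 (SE), which is 1.65-fold lower, with a 95% interval from -1.20 to -0.24, and it missed the threshold over all probes (limma adjusted p = 0.13). The exact two-sided permutation test over the 8 livers gave an unadjusted p of 0.0286, the smallest that 4 against 4 can give.

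Hsd3b2, a further member of this family, had 2 probes, which had lower means in the DDE group at both. The brighter gave 9.71, 10.23, 10.02 and 9.59 in DDE livers, against 11.12, 10.56, 10.73 and 10.02 in controls. These groups overlapped through control 4, which at 10.02 was level with DDE 3 and below DDE 2, and the change of -0.72 had a 95% interval from -1.31 to -0.13 (limma adjusted p = 0.22). The dimmer probe gave 7.21, 7.21, 7.11 and 7.19 in DDE livers, against 8.47, 7.84, 8.75 and 7.97 in controls. All 4 DDE values were at background and all 4 control values above it, with that of control 3 in a stained patch. Its measured change of -1.08 passed the limma test (adjusted p = 0.04). Once the DDE values were raised to background, the DDE mean was 1.53-fold lower. That call was lost without control 1, 2 or 3 (adjusted p = 0.0879, 0.0502 and 0.0592) and without DDE 1, 2, 3 or 4 (0.102, 0.114, 0.104 and 0.0661). It held without control 4 (0.0461) and with stained spots left out. Of the 19 member probes 2 were thus lower and 0 higher, where 0.661% of all 42957 probes were lower and 2.34% higher. The groups did not overlap at 3 of the 19, where 11.8% of all probes had groups that did not overlap.

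**Figure D2:**
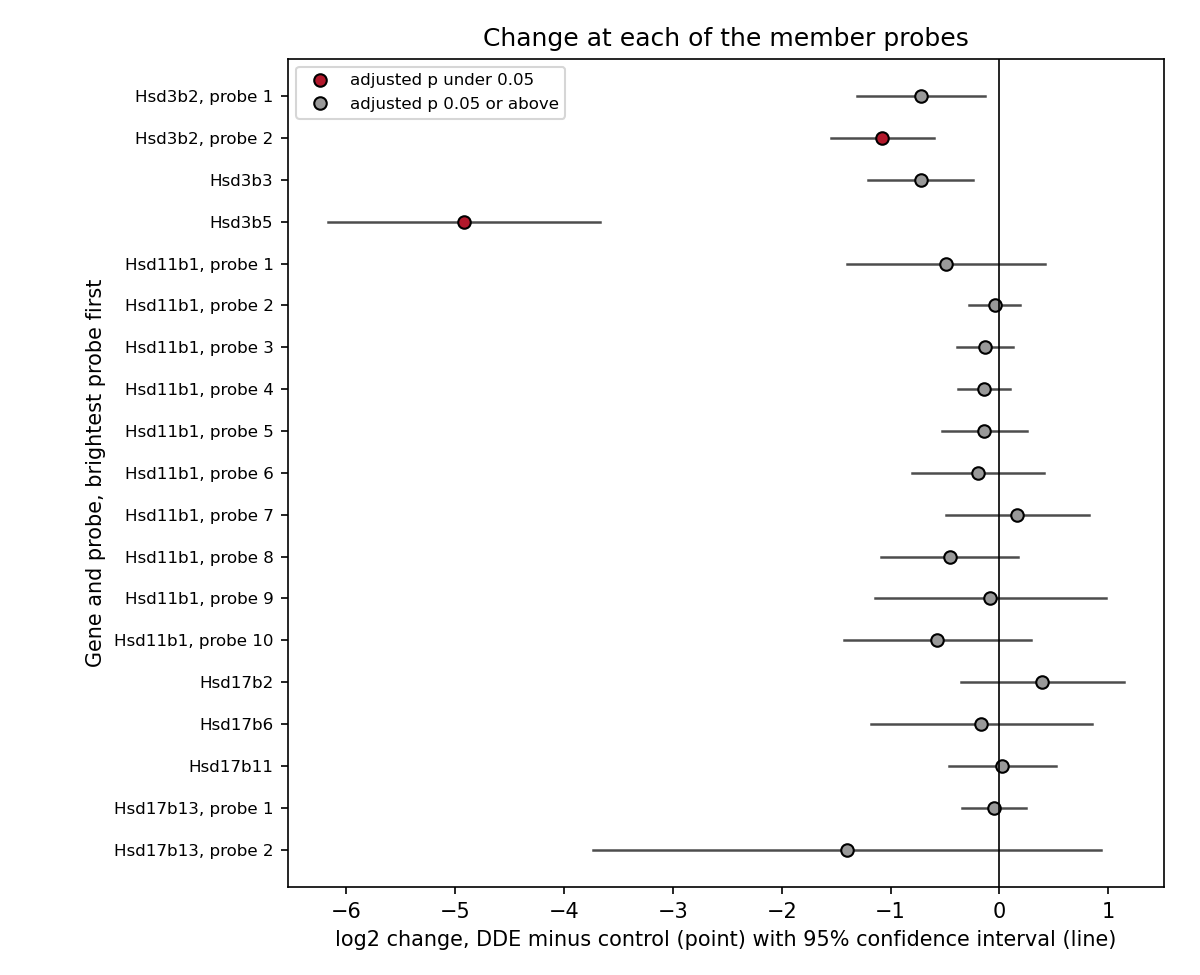
Log2 change, DDE minus control, at each of the 19 member probes (horizontal axis), with 95% confidence intervals from limma and n = 4 livers per group. Red points have an adjusted p under 0.05, which are the Hsd3b5 probe at -4.92 and the dimmer Hsd3b2 probe at -1.08.

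The fall of Hsd3b5 was set against those of its 2 relatives within the same livers, with values raised to background. For each liver the Hsd3b5 signal minus that of the other gene was taken, so that a constant offset between probes cancels between the groups. Unequal probe response along the scale does not cancel. The change of Hsd3b5 minus that of Hsd3b3 was -3.78 on the log2 scale, and minus that of Hsd3b2 it was -3.78. Signal hidden under background could make both lower, since 3 of the 4 DDE values of Hsd3b5 had been raised. The changes of Hsd3b2 and Hsd3b3 at their brightest probes differed by 0.0025. These differences are given without a test, as the size of the Hsd3b5 fall was already known. Transcripts of the Hsd3b genes are closely related, so a probe may bind more than 1 of them, and probes designed on reference mouse sequence may bind Mus spretus transcripts less well.

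The other Hsd3b genes on the array showed no change past the threshold. Hsd3b7, which acts on cholesterol-derived sterols in bile acid synthesis, had 14.18, 14.17, 12.87 and 13.19 in DDE livers and 14.33, 14.17, 12.82 and 12.50 in controls (change 0.15, limma adjusted p = 0.902). DDE 1, DDE 2, control 1 and control 2 were higher than the other 4 livers, and the groups overlapped. The split thus went with the replicate number in both groups, and its cause was not tested. Hsd3b6, an isomerase known from mouse Leydig cells and skin, averaged 9.62 ± 0.19 in DDE livers and 9.89 ± 0.49 in controls (SD, n = 4 each), with a change of -0.26 and a 95% interval from -0.84 to 0.31. Hsd3b1, the isomerase of mouse adrenal and gonad, was above background in DDE 1 (10.36) and control 4 (9.11) only. The mean of 5 adrenal cortex markers was 8.84 on DDE 1 and 7.70, 7.66 and 7.71 on DDE 2, 3 and 4. In controls 1 to 4 it was 7.55, 7.86, 8.53 and 8.19. DDE 1 was also the only DDE liver with Hsd3b5 above background, at 7.63 against 7.58. Control 4, the other liver with Hsd3b1 above background, had the lowest Hsd3b5 of the controls (10.52). Whether adrenal tissue was part of these samples was not tested. Hsd3b4, a 3-ketosteroid reductase known from mouse kidney, was above background at its brightest probe in 0 DDE livers and in 1 control, whose value of 11.05 lay in a stained patch.

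**Figure D3:**
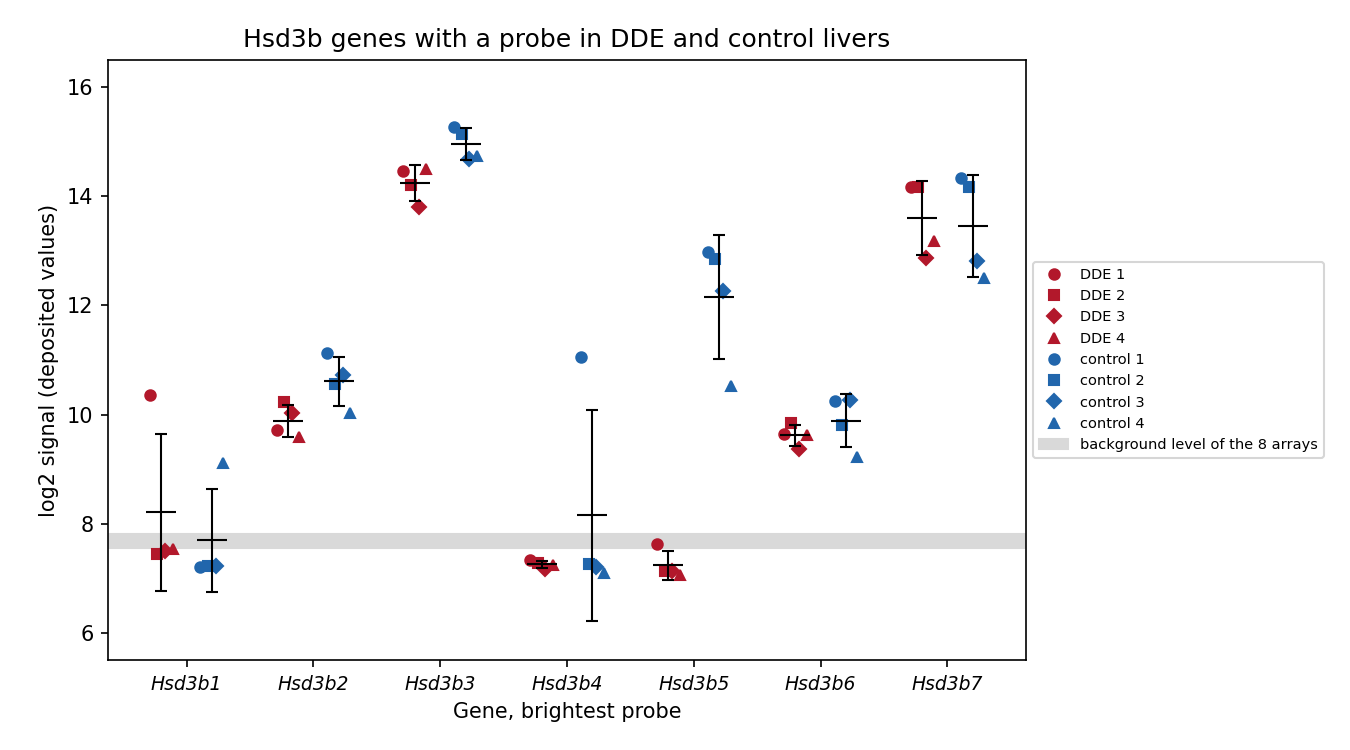
Log2 signal of the 7 Hsd3b genes that have a probe, members and relatives, in DDE livers (red) and control livers (blue), each at its brightest probe, with 1 point per liver, black bars for mean ± SD (n = 4 each) and a grey band for background. The Hsd3b5 groups are far apart, the Hsd3b3 groups are just separate, and those of Hsd3b6 and Hsd3b7 overlap.

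Hsd11b1 encodes the enzyme that in liver mainly regenerates active corticosterone from its 11-keto form, which makes it an amplifier of glucocorticoid action. It had 10 probes, all bright, with values from 13.37 to 15.60. Whether they are repeated spots of 1 sequence is not given in the sources used here. The median over the 10 probes was 14.91, 15.07, 14.71 and 14.88 in the 4 DDE livers, against 15.09, 15.21, 14.79 and 15.02 in the 4 controls. These medians overlapped, and their means of 14.89 ± 0.15 in DDE livers and 15.03 ± 0.17 in controls (SD, n = 4 each) differed by -0.14 (exact two-sided permutation p = 0.257). The 10 probes had changes from -0.57 to 0.16, with 9 below 0 and a lowest adjusted p of 0.52 by limma. The narrowest of their 95% intervals ran from -0.28 to 0.19 and the widest from -1.14 to 0.98.

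The 10 probes of this gene differed within an array, and how much of this is spot error and how much is difference between probe sequences was not tested. Their SD within an array was 0.21, 0.15, 0.68 and 0.48 in the DDE livers and 0.29, 0.16, 0.40 and 0.48 in the controls. On DDE 3 the probes ranged over 1.77, from 13.37 to 15.14, while on DDE 2 they ranged over 0.47. The spread between probes on DDE 3 was thus larger than the spread of the array medians between all 8 livers, which ran from 14.71 to 15.21. Of the 80 Hsd11b1 spots 5 lay in stained patches, and 4 of these belonged to the brightest probe. Without stained spots the array medians differed by -0.03 (exact permutation p = 0.857).

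**Figure D4:**
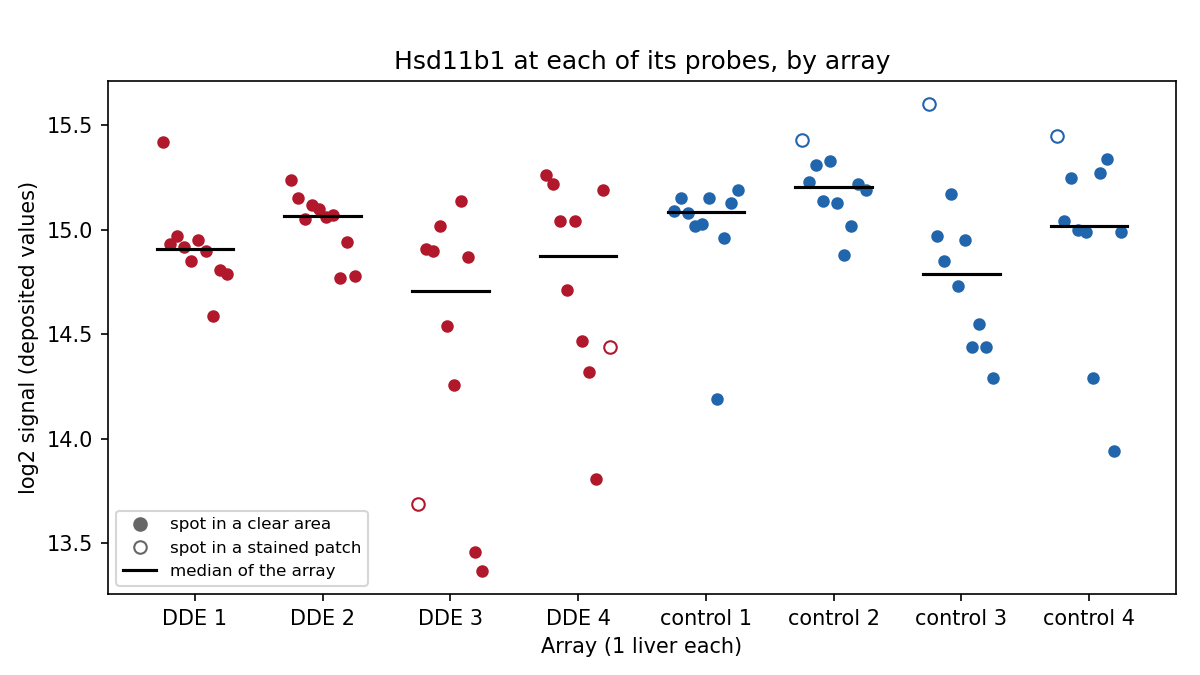
Log2 signal of each of the 10 Hsd11b1 probes on each array (horizontal axis), DDE in red and control in blue, with open circles for spots in stained patches and a black line for the array's median. The medians lie between 14.71 and 15.21, while single probes on DDE 3 reach down to 13.37.

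H6pd, the enzyme that supplies NADPH to Hsd11b1 inside the endoplasmic reticulum, averaged 13.70 ± 0.25 in DDE livers and 13.39 ± 0.50 in controls (change 0.31, limma adjusted p = 0.633). Hsd11b2, which inactivates glucocorticoids in kidney and other mineralocorticoid tissues, was above background in 0 DDE livers and in 2 controls, both on stained spots.

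Hsd17b2, which oxidizes testosterone and oestradiol to their weaker 17-keto forms, had the highest change among the members. It gave 14.21, 14.29, 14.13 and 13.40 in DDE livers, against 13.87, 12.96, 14.24 and 13.38 in controls. DDE 4 was lower than the other DDE livers, and the groups overlapped, with control 3, whose spot was in a stained patch, above 3 of the DDE livers. The change of 0.40 had a 95% interval from -0.36 to 1.15 (limma adjusted p = 0.633).

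Hsd17b6 belongs to the retinol dehydrogenase family and oxidizes the 3-alpha and 17-beta positions of androgens, including 3-alpha-androstanediol. It gave 12.45, 12.34, 10.90 and 12.25 in DDE livers, against 12.81, 12.49, 11.78 and 11.53 in controls. The spot of DDE 4 was in a stained patch, and without it the change was -0.26. DDE 3 stood apart below the other DDE livers, and control 3 and control 4 were the lowest controls. The change of -0.17 (95% interval from -1.18 to 0.85, limma adjusted p = 0.861) was 0.19 without DDE 3 and 0.05 without control 1.

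Hsd17b11 and Hsd17b13 encode related short-chain dehydrogenases that reside on lipid droplets, the first active on 3-alpha-androstanediol and the second on retinol in work on the human enzymes. Hsd17b11 gave 12.80, 12.74, 12.79 and 11.92 in DDE livers, against 12.49, 12.60, 12.37 and 12.68 in controls. DDE 1, 2 and 3 were higher than every control and DDE 4 was lower than every control, and the change was 0.03 with a 95% interval from -0.47 to 0.52 (limma adjusted p = 0.957). Without DDE 4 it was 0.24 (adjusted p = 0.234). The brighter probe of Hsd17b13 gave 13.57, 13.62, 13.64 and 13.40 in DDE livers, against 13.60, 13.76, 13.78 and 13.28 in controls. Its spot on control 3 was in a stained patch. The groups overlapped almost fully, with a change of -0.05, a 95% interval from -0.34 to 0.25 and an adjusted p of 0.865. The dimmer Hsd17b13 probe, which the annotation assigns to another transcript of the gene, was at background in all DDE livers and in controls 1 and 2, while control 3 had 8.18 and control 4 had 11.95. Its change of -1.40 had a 95% interval from -3.73 to 0.93 (limma adjusted p = 0.604), and it was -0.33 without control 4.

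Lipid droplet proteins, the neighbours of Hsd17b11 and Hsd17b13, included 1 higher and 0 lower of 18 measured genes, with a median change of -0.11. Among all genes 2.58% were higher and 0.774% lower. Before adjustment 3 of the 18 were higher and 2 lower with a p under 0.05, beside 2567 and 1026 of all 22471 genes. The 1 that rose was Fitm1, which helps to form droplets, with 10.53 ± 0.11 in DDE livers and 9.40 ± 0.27 in controls (limma adjusted p = 0.0126).

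The rest of the family, 15 genes, was listed together with H6pd and Nsdhl. Of these 17 measured genes 0 passed by limma, and the median change was 0.13. Before adjustment 2 of the 17 were higher and 1 lower with a p under 0.05, beside 2567 and 1026 of all 22471 genes. Hsd17b3, the enzyme that makes testosterone in testis, had the smallest p among brightest probes. It gave 7.91, 8.42, 9.32 and 7.97 in DDE livers, against 7.58, 7.32, 7.54 and 7.39 in controls. All DDE values were above background and no control value was, and the measured change of 0.95 did not pass (limma adjusted p = 0.181). Srd5a3, whose product acts in dolichol synthesis for protein glycosylation, was the only 5-alpha-reductase gene with a probe under its symbol. Its brighter probe gave 9.27, 9.35, 9.36 and 9.16 in DDE livers, against 8.94, 8.93, 8.97 and 12.72 in controls, with control 4 in a stained patch. The dimmer gave 8.72, 8.58, 8.58 and 9.26 in DDE livers, against 8.38, 8.26, 7.93 and 8.02 in controls, a change of 0.64 that did not pass (limma adjusted p = 0.131), with the spot of DDE 4 stained.

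Among other hepatic enzymes that break down androgens and glucocorticoids, 10 of 28 measured genes rose, 1 fell and 17 did not pass, beside 2.58% higher and 0.774% lower among all genes, and the median change was 0.13. This list was chosen with earlier results of these data known, so its count beside the share of all genes is description only. Cyp2a4, a steroid 15-alpha-hydroxylase, averaged 15.55 ± 0.52 in DDE livers and 10.67 ± 0.83 in controls (limma adjusted p = 0.00676). Ugt2b35, a glucuronosyltransferase, averaged 12.26 ± 0.50 in DDE livers and 8.48 ± 0.095 in controls, and Akr1c19, an aldo-keto reductase, 13.58 ± 0.71 in DDE livers and 10.39 ± 0.24 in controls. The gene that fell was Sult2a8, a hepatic sulphotransferase, with a change of -2.04 at the edge of the threshold (adjusted p = 0.0499), and it was named after its values were seen. The sequences of the Ugt2b, Akr1c and Cyp2a families are close, so single members are uncertain. Akr1d1, the steroid 5-beta-reductase, was at background on all 8 arrays.

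Of 10 steroid receptor and carrier genes 0 passed by limma, 1 was higher and 1 lower with a p under 0.05 before adjustment, and the smallest p was that of the coactivator Ncoa2 (change 0.61, adjusted p = 0.268). The glucocorticoid receptor gene Nr3c1 averaged 11.23 ± 0.21 in DDE livers and 11.15 ± 0.19 in controls, with a 95% interval of the change from -0.24 to 0.40. Genes listed as glucocorticoid-responsive in liver gave 2 higher and 0 lower of 19, beside 2.58% higher and 0.774% lower among all genes. Their median change was 0.06. Before adjustment 4 of the 19 were higher and 4 lower with a p under 0.05, beside 2567 and 1026 of all 22471 genes. The 2 were the clock gene Per1, with 10.43 ± 0.50 in DDE livers and 8.40 ± 0.68 in controls (limma adjusted p = 0.0422), and Mfsd2a, a lipid transporter, with 11.59 ± 0.41 in DDE livers and 10.22 ± 0.38 in controls (0.0418). Fkbp5 and Tsc22d3, commonly used readouts of the receptor, had changes of -0.04 and -0.54 and did not pass (adjusted p = 0.937 and 0.633).

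Genes that differ between male and female mouse liver were compared because Hsd3b5 is male-biased. Among all genes 0.774% were lower and 2.58% higher by limma. Among 22 measured male-biased genes, Hsd3b5 not among them, 3 fell and 4 rose, with a median change of -0.27. The 3 that fell were Nudt7, a coenzyme A hydrolase (-2.75), Elovl3, a fatty acid elongase (-2.28), and Cyp2u1 (-1.05). The 4 that rose were Ugt2b38 (1.94), Cyp2d9 (1.1975), Ugt2b1 (1.115) and Cyp4a12a (1.025). At an unadjusted p under 0.05, 6 of the 22 were higher and 5 lower, beside 2567 and 1026 of all 22471 genes. Cyp7b1, a male-biased oxysterol and androgen hydroxylase, had 14.49 ± 0.61 in DDE livers and 15.87 ± 0.18 in controls and missed the threshold (limma adjusted p = 0.0578). Of its controls, 3 of 4 were at 15.91 or above, close to the top of the scale. Cyp7b1 was named outside the rule for naming genes. Others that missed the threshold with an unadjusted limma p under 0.05 were Keg1 (1.15), Gstp1 (1.01) and C9 (-1.14). Among 23 measured female-biased genes 6 rose and 1 fell, Sult3a1 (-0.55), beside the same shares of all genes. The median change of the 23 was 0.42. Cyp2b9 rose by 4.62 with its control values raised to background. Cyp2a4 rose by a measured 4.87 and Cyp2c39 by a measured 2.32, the last to 15.80 ± 0.12 in DDE livers. The changes of Cyp2a4 and Cyp2c39 may be understated. Their DDE values of up to 15.98 for Cyp2a4 and 15.90 for Cyp2c39 lay just under the upper end of the scale. Ugt2b38, Cyp2d9, Ugt2b1 and Cyp2a4 are also in the list of steroid-clearing enzymes. Many of these genes also belong to drug metabolism.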

How the data were processed

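Liver RNA of 8 mice was measured on 1-colour arrays. Per the labels, Cy3-labelled cRNA was made from total RNA. The deposited table holds log2 values normalized by the authors. Medians were 7.46 to 7.47, while scanner, background correction and normalization method are unstated in these sources. All 8 columns were used unfiltered. Genes were named through the platform annotation supplied (33009 probes with a symbol), taking for each the probe of highest average signal across the arrays. No sequence, promoter motif or genome position was used.

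The test was limma 3.58.1 (lmFit, eBayes, R 4.3.3) on every probe, DDE minus control, 4 against 4, two-sided, with Benjamini-Hochberg adjustment over all 42957 probes at 0.05. Single values had an exact permutation test over the 8 livers. The number of arrays limits the precision. Stained spots were those whose surroundings (7 rows by 5 columns) had a median deviation from the probe medians above 0.3 in size. Alternatives were other normalizations, a filter on dim probes, other variance models, weights per array, a block by replicate number, omission of stained spots or of arrays, and the mean of a gene's probes. Members, gene lists and rules were chosen with earlier results of these data known. From each list the 3 largest changes past the threshold are named, or the smallest p, and some further genes are named outside this rule.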

Additional observations from a re-analysis of the deposited data

Results flagged for a closer look

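In the 38 sets of 4 livers (19 probes, DDE and control), 4 had 1 liver far from the other 3 by Dixon's test. For independent sets chance gives about 1 in 20. These sets share the same 8 livers and 10 of the probes are of Hsd11b1, so the count cannot be set against that rate. The first was Hsd3b5 in DDE 1, at 7.63 just over its background of 7.58, with the other DDE livers from 7.06 to 7.13. The others were the brightest Hsd11b1 probe in DDE 3 (13.69 on a stained spot, with the others from 15.24 to 15.42), Hsd17b6 in DDE 3 (10.90, with the others from 12.25 to 12.45) and Hsd17b11 in DDE 4 (11.92, with the others from 12.74 to 12.80). All 4 were in the DDE group.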

How the results depend on the processing

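The fall of Hsd3b5 passed in 18 of 19 alternatives, with changes from -5.46 to -4.64. The exception was the replicate number as a block (adjusted p = 0.0631), under which 9 probes of the whole array passed instead of 1289, and 0 member probes and 0 member genes. Deviations of same-numbered livers from their group means had r from -0.011 to 0.0752 over all probes. Over 12372 unstained probes above background r was 0.277, 0.203, 0.176 and -0.070, so 3 of the 4 pairs were over 0.1. Over all probes 2 of 4 DDE livers correlated best with the control of their own number. As not every pair was over 0.1, the numbers were not taken as pairs. Whether same-numbered livers shared a batch was not tested, and this rule cannot show that they did not. The dimmer Hsd3b2 probe passed in 6 of 17 alternatives. Hsd3b3 kept its sign in 19 of 19 and passed only as an unadjusted permutation p, which gave 2 member genes in place of 1.

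Quantile normalization, centring on the 75th percentile and leaving out the dimmer 40% of probes left each count of calls within 1.5 times. Over all probes, 511 passed with an intensity trend and robust variance, 2140 with array weights and 519 with ordinary t statistics, and from 332 to 1596 with 1 array left out. Of member probes, 1 passed with the trend, 1 with ordinary t statistics, 1 without control 4 and DDE 4 together, and 1 to 2 with 1 array left out. For member genes the count was 1 with any 1 array left out.

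Near 0, signs were not stable. Without stained spots the brightest Hsd11b1 probe changed by 0.22 and Hsd17b13 by 0.011. With 1 array left out, Hsd17b6 ran from -0.38 to 0.19, Hsd17b11 from -0.052 to 0.24, Hsd17b13 from -0.16 to 0.011, and 3 other Hsd11b1 probes from -0.10 to 0.0025, from -0.33 to 0.30 and from -0.0058 to 0.35. None of these passed. The cause of these shifts was not tested. Signal at background limits Hsd3b5, the dimmer Hsd3b2 probe, Hsd3b1 and Hsd3b4.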

Other observations

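Growth hormone signalling sets the male and female patterns of mouse liver. Among all 22471 genes 2.58% rose and 0.774% fell by limma, and before adjustment 2567 were higher and 1026 lower with a p under 0.05. Of 15 measured genes of this pathway 0 rose and 1 fell, and the median change was -0.34. Before adjustment 3 of the 15 were higher and 4 lower with a p under 0.05. The gene that fell was Ghr, the growth hormone receptor, with 13.78, 13.69, 13.72 and 13.56 in DDE livers, against 14.51, 14.60, 14.33 and 14.57 in controls (change -0.82, limma adjusted p = 0.00845). All DDE livers were below all controls.

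Among genes of hepatocytes near the central vein 0 of 12 rose and 1 fell, the glutamine synthetase gene Glul, with 11.96 ± 0.12 in DDE livers and 13.12 ± 0.28 in controls (limma adjusted p = 0.0136). Of all genes 2.58% were higher and 0.774% lower by limma, and 4.57% were lower at an unadjusted p under 0.05. At that unadjusted level 1 of the 12 was higher and 2 were lower, and their median change was -0.05. For periportal genes 0 of 8 passed by limma, 0 were higher and 2 lower with a p under 0.05 before adjustment, and Cyp2f2 had the smallest p (change -0.43, adjusted p = 0.0531). Of 7 steroid synthesis genes of adrenal and gonad 0 passed, also at an unadjusted p under 0.05, and Nr5a1, their regulator, had the smallest p (adjusted p = 0.412).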
